A study of Mus musculus with 5 samples.

Results

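Epithelial serine proteases and their inhibitors were followed across 5 arrays as a set of 9 genes: the kallikreins Klk10, Klk8 and Klk11, the serine proteases St14, Prss8 and Prss22, and the inhibitors Slpi, Spint1 and Spint2. The members were taken by gene symbol, and each of the 9 symbols was found among the 18193 genes that the array's annotation names. They had 10 of the 45101 probe sets, 1 for each gene and 2 for Spint2. The set was selected on the intensities of these same 5 arrays, in all 3 comparisons between lines, so the members' values are given as a description. Counts of members past limma's threshold are printed beside the share of all genes and support nothing. All samples are NT2.5 cells, a mammary tumour line derived from neu-transgenic mice. The parental cells (Wild type NT2.5) are labelled with bone, liver and lung as preferred sites of metastasis and had 1 array. The bone sub-line had an early array at passage 3 and a final array at passage 6, and the liver sub-line an early array at passage 1 and a final array at passage 3, each labelled with bone or liver as its preferred site. Age, sex and strain of the mice of origin, treatments, and whether a sub-line is 1 clone are not given in the sources used here.

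Serine proteases of epithelia are made as inactive precursors and cut one another in chains at the cell surface and in the space between cells. Matriptase (St14) spans the membrane and activates prostasin (Prss8), which is held by a lipid anchor, and the Kunitz inhibitors HAI-1 (Spint1) and HAI-2 (Spint2) hold both in check. The tissue kallikreins are secreted trypsin-like or chymotrypsin-like proteases whose genes stand side by side in 1 cluster, and in skin they cut the proteins that join cells. Slpi is a secreted inhibitor of elastase and cathepsin G that epithelia release into their fluids. In the mammary gland these proteases and inhibitors are made by the epithelial cells, from which NT2.5 derives.

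The upstream sequences are shown for the kallikreins that differed most between the sub-lines and for Slpi, the member at least 2-fold above the parental cells in both sub-lines. Each is the stretch of 250 bases before the annotated start, 5′ to 3′ on the gene's strand, in RefSeq's build GRCm38.p6 of the C57BL/6J mouse, not read from these cells. Klk10 lies at chr7:43780804-43781053 (plus strand), Klk8 at chr7:43797327-43797576 (plus strand), the downstream of the annotated Klk6 windows at chr7:43825200-43825449 (plus strand) and Slpi at chr2:164356508-164356757 (minus strand). Capitals mark TTAAAA and GGGCGG (the GC box), searched on both strands.
Klk10: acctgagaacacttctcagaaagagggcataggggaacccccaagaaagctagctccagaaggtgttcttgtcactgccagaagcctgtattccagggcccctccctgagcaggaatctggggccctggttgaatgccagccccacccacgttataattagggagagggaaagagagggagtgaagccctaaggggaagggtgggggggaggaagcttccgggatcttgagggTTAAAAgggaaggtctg
Klk8: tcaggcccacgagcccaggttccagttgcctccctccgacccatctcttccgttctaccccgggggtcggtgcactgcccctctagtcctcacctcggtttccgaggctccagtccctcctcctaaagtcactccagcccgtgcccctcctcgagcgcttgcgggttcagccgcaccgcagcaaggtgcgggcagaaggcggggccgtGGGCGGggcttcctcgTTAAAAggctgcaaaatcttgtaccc
Klk6: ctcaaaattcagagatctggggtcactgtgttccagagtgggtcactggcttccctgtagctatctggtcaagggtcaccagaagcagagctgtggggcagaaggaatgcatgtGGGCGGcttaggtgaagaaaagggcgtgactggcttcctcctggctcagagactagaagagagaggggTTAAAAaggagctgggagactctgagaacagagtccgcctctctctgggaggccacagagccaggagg
Slpi: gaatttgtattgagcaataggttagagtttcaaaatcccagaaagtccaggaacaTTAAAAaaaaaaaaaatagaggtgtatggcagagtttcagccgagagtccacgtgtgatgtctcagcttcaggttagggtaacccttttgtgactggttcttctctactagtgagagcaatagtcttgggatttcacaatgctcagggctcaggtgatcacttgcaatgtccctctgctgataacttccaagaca
TTAAAA began 17 bases before the start in Klk10, 26 in Klk8 and 68 in the Klk6 window shown, and 195 in Slpi. The upstream Klk6 window, not printed, had 0 matches to TTAAAA and 2 GC boxes. TTAAAA was added to the search after the sequences had been seen. Within the last 50 bases it was found in 3.28% of 32851 promoter windows and in 13 of 28 kallikrein windows, among them those of several Klk1b genes that were dim on all arrays, so it did not separate the bright from the dim kallikreins. A GC box stood in 32.7% of all windows and in those of Klk8 and Klk6 but not of Klk10 or Slpi. TATAAA (12.4% of windows), the grainyhead site AACCGGTT (0.116%) and the antioxidant response core TGACNNNGC (10.2%) had no match in the Klk10, Klk8, Klk6 or Slpi windows. St14, Prss8 and Prss22 have no entry in the table of promoters used here.

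The arrays were scaled alike, with a trimmed mean of 150 on each (2% off each end) and medians between 21.9 and 26.4. Of 11 mammary epithelial markers 9 were above the intensity filter of 25.1 on at least 1 array, and the summed intensity of the list lay between 24286 and 29286. Krt8, Krt18, Krt7, Epcam, Cdh1 and Cldn4 were at 1084 or higher on all 5 arrays, Erbb2 and Krt5 were lower, and Krt19 and Muc1 were below the filter. Krt14, a basal keratin, had 1367 and 1319 in bone, 1023 in parental cells and 496.5 and 989.0 in liver, lowest in both liver arrays like Klk10, and its part in that difference was not tested. The summed intensity of 10 macrophage markers was 221.9 in parental cells, 302.4 and 289.8 in the bone sub-line and 753.7 and 552.9 in the liver sub-line, with Cd163, Mrc1 and Clec4f below the filter on all arrays. Cd68 (52.1 in parental cells; 173.1 and 172.0 in liver) and Csf1r (67.6; 168.7 and 220.0) were at least 2-fold above parental in both liver arrays, and Fcgr3 (1.3 and 1.1 in bone; 30.4 and 19.7 in liver) was 2-fold higher in liver than in bone in every pair. The markers did not move as 1 set. Lyz2 (140.4 and 42.2 at liver passages 1 and 3), C1qa (56.1 and 1.1) and C1qb (80.4 and 11.8) fell between the liver passages. In bone C1qa had 1.0 and 1.2, and C1qb 14.0 and 13.2. Adgre1 had 49.9 and 27.6 in liver, 31.8 in parental cells and 42.5 and 36.1 in bone. Of 7 hepatocyte markers 6 were below the filter, as were 4 of 5 endothelial markers. Of 9 granulocyte and mast cell markers 5 passed it, and their summed intensity lay between 147.5 and 217.0. Fibroblast and stromal markers passed it for 4 of 8, with sums of 299.9 in parental cells, 177.3 and 147.2 in bone and 255.4 and 232.2 in liver. Cxcl12 of that list was at least 2-fold below parental in both sub-lines. The osteoblast markers above the filter were Sp7 and Alpl. Keratinocyte differentiation markers passed it for 5 of 10, with sums between 257.0 and 412.0.

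Klk10, a kallikrein made by epithelial cells, was the member that separated the sub-lines most. Its intensity was 452.6 and 325.9 in the bone sub-line at passages 3 and 6, 421.7 in parental cells, and 78.9 and 67.5 in the liver sub-line at passages 1 and 3. Both liver arrays lay far below the other 3, and the parental value fell between those of the bone passages. On the scale log2(intensity + 16), which understates the change of dim genes, bone minus liver was 2.17 ± 0.22 (limma SE, n = 2 passages per sub-line), or 4.5-fold. Each of the 4 ways to pair 1 bone with 1 liver array gave 3.6-fold to 5.61-fold. Against the parental array the liver sub-line was 4.92-fold lower (log2 difference -2.30 ± 0.27; n = 2 passages and 1 array), whereas the bone sub-line differed by -0.13 ± 0.27, less than its SE. The order of the lines was bone and parental together, then liver. At passage 3, the only passage number that both sub-lines have, bone was 5.61-fold above liver. Within a sub-line the later passage was 1.37-fold lower in bone and 1.14-fold lower in liver. In bulk RNA, fewer cells that make a transcript and less of it per cell cannot be told apart. The summed macrophage markers, higher in both liver arrays though not for each marker, moved opposite to Klk10, and their part in its difference was not tested.

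Klk8 (neuropsin), known from skin and brain, was also lowest in both liver arrays, with a smaller difference. Its intensity was 169.0 and 185.7 in the bone passages, 134.6 in parental cells and 88.3 and 91.2 in the liver passages. The 3 lines did not overlap, with bone above parental and parental above liver. Bone minus liver was 0.87 ± 0.18 (log2 difference, limma SE), 1.83-fold, against an SD between passages of 0.065. Bone was 1.28-fold above parental (0.36 ± 0.22) and liver 1.42-fold below it (-0.51 ± 0.22). Between passages of a sub-line Klk8 differed by at most 1.09-fold.

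Klk11 was not measurable in these cells. Its intensity was 2.2 in parental cells, 2.1 and 15.1 in the bone passages and 17.0 and 12.3 in the liver passages, all under the filter of 25.1. It was left out of the fit, and no order is read from its values.

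**Figure D1:**
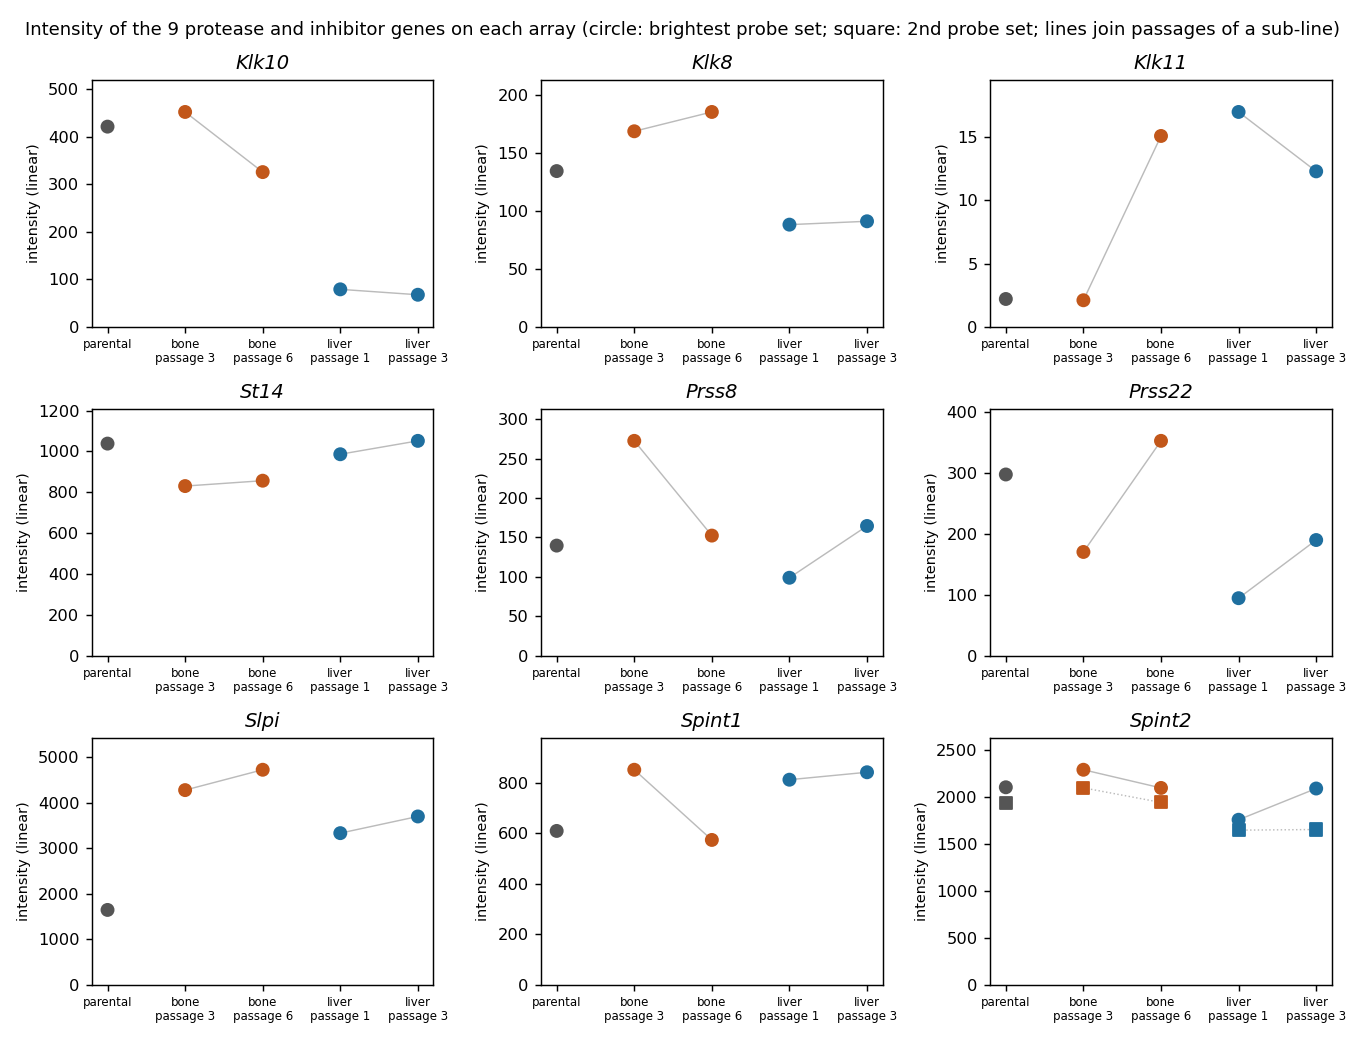
Intensity (linear, each panel with its own axis from 0) of the 9 genes on the parental array (grey), bone passages 3 and 6 (orange) and liver passages 1 and 3 (blue), 1 point per probe set and array with no error bars. Klk10 sits at 78.9 and 67.5 in liver against 325.9 to 452.6 elsewhere, and Slpi at 1640 in parental cells against 3327 to 4720 in the sub-lines.

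The kallikrein cluster held a further gene with the pattern of Klk10. The annotation lists 26 kallikrein genes of this cluster on chromosome 7, in the order Klk11, Klk10, Klk9, Klk8, Klk7, Klk6 around the members, and 19 of them are on the array. Of these, 13 were under the filter on all 5 arrays, with a highest intensity of 18.7. Klk6 (neurosin), which is next but one to Klk8, had 350.6 and 254.3 in the bone passages, 300.8 in parental cells and 76.8 and 93.2 in the liver passages. It was not a member. Its bone minus liver difference was 1.64 ± 0.22 on the log2 scale, lower in both liver arrays than in the other 3. It did not pass limma's test over all 12609 genes (adjusted p = 0.0795, from 0.0281 to 0.301 over the alternatives), nor did liver against parental (-1.65 ± 0.28; adjusted p = 0.194). Between the bright genes stood dim ones. Klk9, between Klk10 and Klk8, ranged from 14.5 to 29.7 and Klk7, between Klk8 and Klk6, from 1.3 to 8.0. Klk12, beyond Klk11, ranged from 3.7 to 11.0.

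Klk1, at the far end of the cluster, had 129.9 and 137.7 in bone, 122.2 in parental cells and 70.8 and 98.9 in liver (bone minus liver 0.58 ± 0.21; limma adjusted p = 0.299). This is 1 of its 4 probe sets. The other 3 were at 8.2 or below on every array, and because the Klk1b genes are close copies of Klk1 the value cannot be assigned to Klk1 with certainty. Klk13, the first of the cluster on the array, ranged from 18.8 to 26.6.

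**Figure D2:**
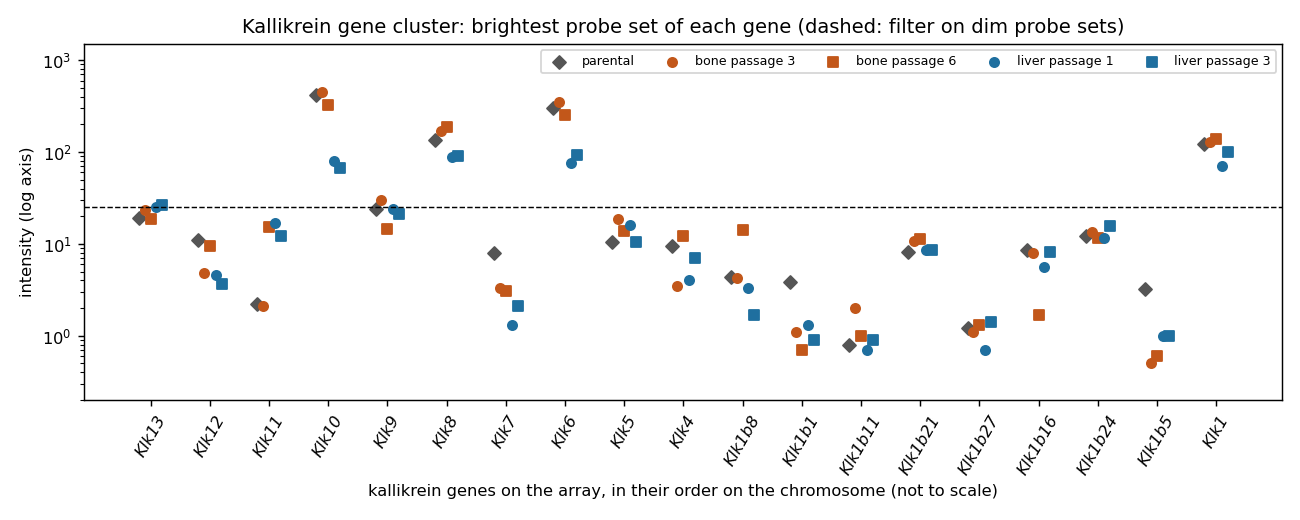
Intensity (log axis) of the brightest probe set of each of the 19 kallikrein genes on the array, in chromosome order and not to scale, 1 point per array; the dashed line is the filter at 25.1. Klk10, Klk8 and Klk6 stand above their neighbours, and their blue liver points (67.5 to 93.2) lie below the grey and orange ones (134.6 to 452.6).

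Over the 12608 other genes tested, the profile of Klk10 across the 5 arrays was most like those of Rbp7, Adgrg6, Alpl, Klk6 and Fkbp11, by the root mean square difference of mean-centred log2 values (0.24, 0.26, 0.28, 0.31 and 0.35 log2 units). Klk6 was therefore the 4th nearest gene, and Klk8 the 145th at 0.76. Rbp7, which encodes a retinol-binding protein, had 1058 and 610.8 in bone, 845.4 in parental cells and 181.3 and 229.8 in liver. Alpl, the tissue-nonspecific alkaline phosphatase and also on the list of osteoblast markers, had 444.9 and 395.2, 470.3, and 142.6 and 108.1 in the same order. The likeness describes 5 arrays and was not tested.

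St14, matriptase, was the steadiest of the proteases. It had 830.3 and 856.6 in the bone passages, 1038 in parental cells and 986.1 and 1052 in the liver passages. The bone arrays were the lowest of the 5, and parental and liver overlapped. Bone was 1.2-fold below liver (log2 difference -0.27 ± 0.18) and 1.23-fold below parental (-0.29 ± 0.22). Its range over the arrays, 0.34 on the log2 scale, was larger than that of 15.6% of the genes tested, whose median range was 0.58. The gene next to it, Zbtb44, was also lowest in bone, at 148.0 and 161.4 against 236.1 in parental cells and 240.1 and 219.1 in liver (bone minus liver -0.53; limma adjusted p = 0.283). Of its other neighbours, Aplp2 had 2019 and 1752 in bone, 2157 in parental cells and 2235 and 2134 in liver, also lowest in bone, and Adamts8 ranged from 38.5 to 64.2.

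Prss8, prostasin, a protease that St14 activates and that raises the activity of the epithelial sodium channel, varied as much between passages as between lines. It had 272.6 at bone passage 3 and 152.4 at bone passage 6, 139.7 in parental cells, 98.9 at liver passage 1 and 164.6 at liver passage 3. Bone passage 3 was high and liver passage 1 low, and the other 3 arrays lay together. The final passage was 1.71-fold below the early one in bone and 1.57-fold above it in liver, so that the lines overlapped (bone minus liver 0.61 ± 0.34 on the log2 scale). The neighbouring protease gene Prss36 had 110.6 and 64.9 in bone, 73.7 in parental cells and 64.2 and 91.0 in liver, with bone passage 3 and liver passage 3 highest in both genes. On the other side of Prss8, Kat8 was highest on the same arrays but ranged only from 81.9 to 91.2, and Bckdk was lowest where Prss8 was highest, at 157.9 at bone passage 3. The nearest profiles to Prss8 were those of Bbip1, Pappa, Ramp2, Mfsd2a and Neat1 (0.11 to 0.12 log2 units). Neat1, a long noncoding RNA, had 433.7 and 195.3 in bone, 183.6 in parental cells and 153.8 and 248.8 in liver.

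Prss22, a secreted tryptase of epithelia, was higher at the final than at the early passage of both sub-lines. It had 170.3 and 352.7 at bone passages 3 and 6, 297.5 in parental cells, and 94.4 and 189.9 at liver passages 1 and 3. The final array was 1.98-fold above the early one in bone and 1.87-fold in liver, each from 1 array and with no replicate check. Both liver arrays were below parental cells, by 1.52-fold and 2.84-fold (log2 difference of the line -1.06 ± 0.51), and bone overlapped both other lines. At the shared passage 3, bone was 1.11-fold below liver, against a line difference of 0.80 ± 0.42 the other way. The nearest profiles were those of Speer4f1, Marchf10, Slc43a1, Mcm5 and BC055324 (0.14 to 0.19 log2 units). Mcm5, a subunit of the replication helicase, had 2069 and 3158 in bone, 2687 in parental cells and 1125 and 2361 in liver. The adjoining protease gene Prss27 had 22.1 and 39.0 in bone, 39.8 in parental cells and 32.9 and 29.9 in liver, low at bone passage 3 like Prss22 but not at liver passage 1. Prss30 was at 5.9 or below, and Kctd5, the next gene on the array, ranged from 387.3 to 495.1.

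Among the inhibitors, Slpi differed most, and from the parental cells rather than between the sub-lines. Its intensity was 1640 in parental cells, 4273 and 4720 in the bone passages and 3327 and 3694 in the liver passages. All 4 sub-line arrays lay above the parental one, and both bone arrays above both liver arrays. Bone was 2.72-fold above parental (log2 difference 1.44 ± 0.23) and liver 2.13-fold (1.09 ± 0.23). These comparisons share the single parental array. Bone minus liver was 0.36 ± 0.18, 1.28-fold, and the passages of a sub-line differed by at most 1.11-fold. Slpi is also made by macrophages and neutrophils. The summed macrophage markers were above the parental value of 221.9 on all 4 sub-line arrays, as Slpi was, and were higher in liver than in bone, where Slpi was higher in bone. The granulocyte list had its highest sum, 217.0, in parental cells, where Slpi was lowest. The part of these cells in the Slpi values was not tested.

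The profiles nearest to Slpi were those of Dus2, Atp13a4, Car12, Gm3716 and Fut11 (0.067 to 0.12 log2 units). Car12, a carbonic anhydrase of the cell surface, had 16.9 in parental cells, 81.4 and 73.8 in bone and 58.3 and 60.1 in liver. Of the genes beside Slpi, Matn4 had the same order of lines, with 7.3 in parental cells, 101.2 and 32.6 in bone and 8.4 and 14.0 in liver, of which only the bone values passed the filter. Svs5 had the reverse order, highest in parental cells at 44.0, with 3.3 and 3.2 in bone and 20.9 and 27.6 in liver. Svs6 and Rbpjl were at 7.4 or below.

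Spint1 (HAI-1), the membrane-bound inhibitor of matriptase, had 851.3 at bone passage 3 and 573.2 at bone passage 6, 608.9 in parental cells and 811.9 and 841.4 in the liver passages. Liver was above parental by 1.32-fold and 1.37-fold (0.43 ± 0.29), and the bone passages were the highest and the lowest of the 5 arrays, with passage 6 1.47-fold below passage 3. Without bone passage 6, bone minus liver went from -0.24 to 0.04. Spint2 (HAI-2) had 2289 and 2095 in bone, 2102 in parental cells and 1756 and 2089 in liver with its brighter probe set. The second probe set gave 2096 and 1941, 1933, and 1645 and 1652. Bone lay above liver in both probe sets, by 1.14-fold on average in the brighter (0.19 ± 0.19), where bone passage 6 and liver passage 3 were nearly equal. Beside Spint1, Rhov had 43.8 and 24.7 in bone, 38.5 in parental cells and 51.1 and 48.2 in liver, and Vps18 had 167.4 and 102.8, 119.7, and 141.1 and 144.8, both with bone passage 6 lowest, as Spint1 had. Zfyve19 was highest there, at 265.1, and Ppp1r14d was at 14.0 or below. Beside Spint2, Yif1b ranged from 392.1 to 601.1 and was highest at bone passage 3 and lowest at liver passage 1, as Spint2 was. Ppp1r14a and Dpf1 were at 17.7 or below.

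Of the 8 members above the filter, 1 was at least 2-fold higher in bone than in liver in every pair of arrays, Klk10, and 0 were 2-fold lower. Of all genes tested 1.06% were 2-fold apart in this way, 0.444% higher and 0.619% lower. Limma with Benjamini-Hochberg adjustment over all genes called 1 of the 8, again Klk10, where it called 0.190% of all genes. Without liver passage 1, or without liver passage 3, limma called 0 of all genes tested (1325 and 2020 at an unadjusted p under 0.05), Klk10 among those lost, and the same held when the pseudocount was 1 or no filter was used. Against the parental array 1 member was 2-fold higher in both bone passages, Slpi (2.14% of all genes were 2-fold apart in both, 0.999% higher and 1.14% lower), and limma called 0 of the 8 (0.135% of all genes, with 1 member at an unadjusted p under 0.05). In both liver passages Slpi was 2-fold higher and Klk10 2-fold lower (1.80% of all genes 2-fold apart, 0.857% higher and 0.944% lower), and limma called 0 of the 8 (0.0159% of all genes, with 2 members at an unadjusted p under 0.05). Without bone passage 3, or without bone passage 6, limma called 1 of the 8 lower in liver than in parental cells, Klk10, and with a variance trend 1 higher in bone, Slpi. The 2-fold count for liver was 1 after median centring, where Slpi was no longer 2-fold higher in both passages. Bone and liver arrays did not overlap for 5 of the 8, where 47.1% of all genes did not (21.2% higher and 25.9% lower in bone). Klk10, Klk8, Slpi and Spint2 were higher in bone and St14 was lower. The parental array lay on 1 side of both bone arrays for 4 of the 8, 3 of them higher in bone (all genes 71.1%, with 33.5% higher and 37.7% lower), and on 1 side of both liver arrays for 6, with 2 higher and 4 lower in liver (all genes 68.1%, with 35.2% higher and 32.8% lower). Between single arrays, 0 members were 2-fold apart between the bone passages (2.43% of all genes) or the liver passages (2.81%), and Klk10 alone was at the shared passage 3 (4.59%). The median difference of the 8 was 0.485 for bone minus liver (all genes -0.023), 0.13 for bone minus parental (-0.019) and -0.12 for liver minus parental (0.014). Since these arrays chose the members, nothing is read from these counts.

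**Figure D3:**
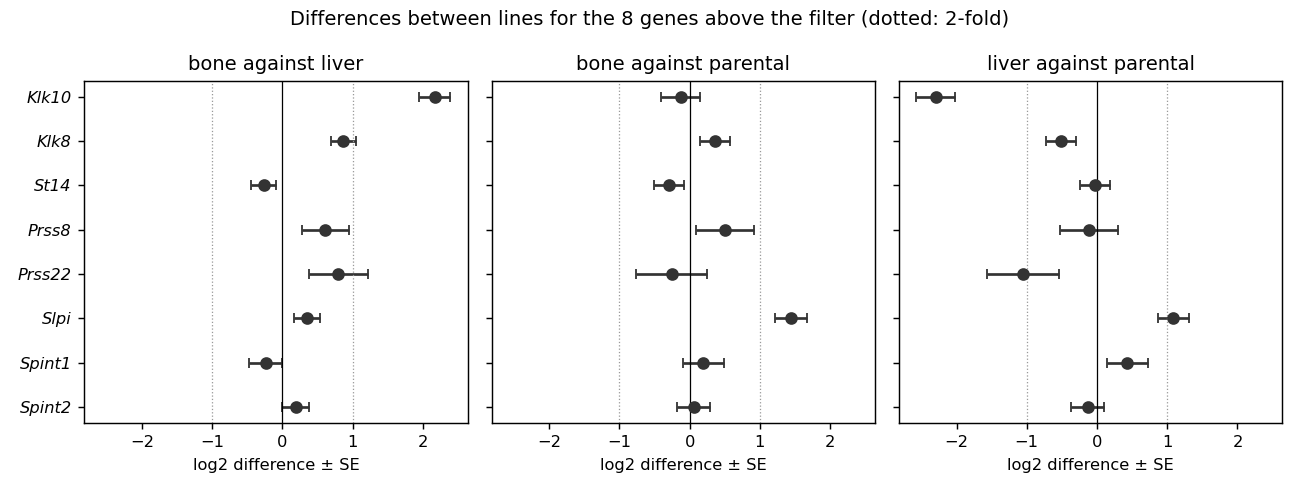
Log2 differences of log2(intensity + 16) with limma's SE as bars (n = 2 passages per sub-line and 1 parental array) for the 8 genes above the filter; dotted lines mark 2-fold. Klk10 lies at 2.17 for bone against liver and -2.30 for liver against parental, and Slpi above 1 against parental in both sub-lines.

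The wider pathway was read from 6 lists of other kallikreins, membrane-anchored and secreted proteases, WAP, Kazal and Kunitz inhibitors, substrates and receptors, and epithelial transcription factors. Limma called 0 of the 61 tested genes of these lists for bone against liver (5 at an unadjusted p under 0.05), 0 for bone against parental (6) and 0 for liver against parental (3). Their median differences were 0.006, 0.012 and -0.001. At least 2-fold apart in every pair were 1 gene between bone and liver (Klk6), 2 between bone and parental (Grhl3 higher and F2r lower) and 3 between liver and parental (Klk6, Tmprss13 and Ehf, all lower), beside backgrounds of 1.06%, 2.14% and 1.80%. The labels do not say whether the passages of a sub-line were derived independently, so these p-values may reflect only how far its passages vary.

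Of the receptors, F2r (PAR1, the thrombin receptor, which other trypsin-like proteases can also cut) had 797.2 in parental cells, 242.2 and 344.3 in bone and 360.3 and 623.0 in liver. All sub-line arrays were below the parental one (bone -1.41 ± 0.38; limma adjusted p = 0.354), and its second probe set gave 424.7, 150.6 and 146.1, and 186.4 and 348.4. Cdcp1, a surface protein that matriptase and other serine proteases cut, had 624.9 and 600.7 in bone against 1212 in parental cells and 1380 and 876.8 in liver (bone minus liver -0.83 ± 0.25; adjusted p = 0.241). The gene names used here give no probe set for F2rl1 (PAR2), which is not analysed here. The sodium channel subunits Scnn1a and Scnn1b were low, at 64.4 or below.

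Of the transcription factors, Grhl3, a grainyhead factor of the epidermal barrier, had 129.8 and 67.4 in bone, 23.9 in parental cells and 31.1 and 41.9 in liver (bone minus parental 1.47 ± 0.37; limma adjusted p = 0.314). Both bone arrays were above the other 3. Grhl2 was level, between 512.6 and 611.4. Ehf, an epithelial ETS factor, was highest in parental cells at 348.9, with 186.8 and 91.4 in bone and 64.2 and 112.9 in liver (liver minus parental -1.84 ± 0.45; adjusted p = 0.395). A further 2 of its 4 probe sets had parental cells highest too, and the last was dim. The membrane protease Tmprss13 was dim, at 51.5 in parental cells and 22.5 or below elsewhere (liver minus parental -1.31 ± 0.43; adjusted p = 0.571).

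Of the other inhibitors, Wfdc18, a WAP-domain protein of the same fold as Slpi, had 5403 and 3432 in bone, 3624 in parental cells and 1568 and 2512 in liver (bone minus liver 1.11 ± 0.32; limma adjusted p = 0.224). Both liver arrays were lowest, as for Klk10. Wfdc2 (HE4), another WAP protein, had 4137 and 5484 in bone, 3721 in parental cells and 3384 and 5013 in liver, with overlapping bone and liver arrays. Cdcp1, Scnn1a, Scnn1b, Grhl2, Klk1, Wfdc18 and Wfdc2 were picked for mention after their values were seen.

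**Figure D4:**
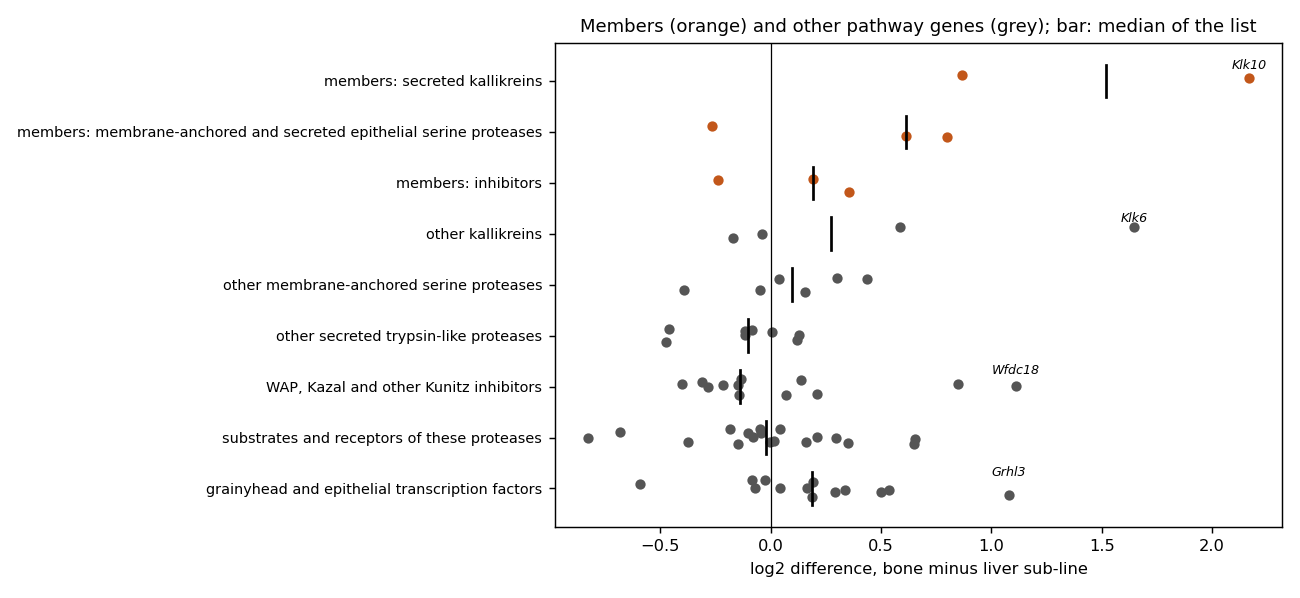
Log2 difference of bone minus liver sub-line for each tested gene, by list; orange points are the members, grey points the other pathway genes and bars the medians, with vertical scatter for legibility only. Klk10 (2.17) and Klk6 (1.64) stand apart to the right, and the medians of the lists of other genes lie between -0.14 and 0.27.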

How the data were processed

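The deposited values are linear intensities of 45101 probe sets on 5 one-colour arrays. RMA is named in the submitters' processing notes (version not given in the sources used here). These intensities lack RMA's log2 scale and have a common trimmed mean. Any other step is unknown. Per the labels' protocols, 5 ug of total RNA was labelled per array.

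Intensities were converted to log2(intensity + 16), with no further scaling. Of the probe sets, 34945 had 1 gene in the platform annotation. Those whose highest intensity reached the median of all values, 25.1, were kept, and the probe set with the highest mean log2 value stood for its gene, which left 12609 genes. Limma 3.58.1 (lmFit, eBayes; R 4.3.3) was fitted over all 5 arrays with 3 lines as groups and Benjamini-Hochberg adjustment, calling genes at an adjusted p under 0.05. The fit had 2 residual and 4.2 prior degrees of freedom and was tested on simulated data with independent noise on each array. Such data cannot show how the calls fare if the passages of a sub-line are not independent. For the single parental array the fit takes the spread seen between passages. The number of arrays limits the precision.

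The members and lists were chosen with earlier results of these data known. Named were all members, pathway list genes called or 2-fold apart in every pair, up to 2 neighbours on each side that are on the array, and the 5 nearest profiles of members ranging over at least 1 log2 unit. Neighbour order and promoters came from RefSeq (GRCm38.p6), where 6 of 9 members had a promoter. The alternatives were other filters, pseudocounts, scalings and probe set rules, a variance trend, a 3-fold threshold, the stage as a block and each sub-line array left out.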

Additional observations from a re-analysis of the deposited data

Results flagged for a closer look

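Results were flagged for 3 members whose values moved in opposite directions. Klk8 was above the parental array in both bone passages and below it in both liver passages, so that bone minus liver was 0.87 on the log2 scale, which did not pass limma's test over all genes. Prss8 was lower at the final than at the early passage in bone and higher in liver, a difference between these changes (bone minus liver) of -1.43 log2 units, from 1 array per passage. Spint1 was lower at the final passage in bone (-0.56 log2 units) but only 0.05 higher in liver, a difference of -0.61 log2 units. Spint2 (-0.13 in bone and 0.25 in liver) and Klk11, under the filter, also changed in opposite directions but were not flagged. The share of all genes with such opposite directions is not given here, so nothing is read from the count. The differences of Prss8, Spint1 and Spint2 between single arrays were not tested.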

How the results depend on the processing

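The count of members 2-fold apart in every pair of bone and liver arrays was 1 under every alternative run for it. Leaving out an array only removes pairs, so Klk10 could not fail there and the count could not fall. The probe set rules could not change Klk10 either, which has 1 probe set. With a 3-fold threshold the count was 0 for bone against parental and 1 for liver against parental, and the latter was 1 with median centring. For liver against parental the count rose from 2 to 3 with a pseudocount of 1. The added member was Klk11, under the filter on all arrays, because these counts take all 9 members without the filter. No order is read from its values. With liver passage 3 left out, Prss22 was 2.84-fold below parental and passed the 2-fold threshold as well. Among the recomputed member differences, 198 moved by less than the SD between passages and 9 by more, 5 of these with a pseudocount of 1. The 198 include all differences recomputed with a sub-line array left out, 18 for each array. Those could not move by more than this SD, which is computed from the same passages. Averaging probe sets could change only Spint2, the member with 2 probe sets. The 198 are therefore no measure of stability. Median centring and quantile normalization moved the median of all genes by at most 0.063 log2 units and turned no member's direction. Leaving out 1 array turned the direction of differences for Klk10, Klk11, Prss22, Spint1 and Spint2 against parental or between sub-lines, and for St14 and Prss8 against parental. With all arrays these differences lay between -0.365 and 0.383 log2 units, both of Klk11, and that of Prss22 was -0.258.

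Counts of all genes called by limma depended on the settings. For bone against liver, 24 became 0 with no filter or a pseudocount of 1 (2154 and 1580 at an unadjusted p under 0.05), 39 with a filter on the mean, 54 with a pseudocount of 32 or median centring, 15 with averaged probe sets and 52 with a variance trend. They ranged from 0 to 75 with 1 array left out. For bone against parental, 17 became 1 with no filter or a pseudocount of 1, 27 with a pseudocount of 32, 36 with median centring, 9 with averaged probe sets and 31 with a trend, and 8 to 52 with an array left out. For liver against parental, 2 became 1 with no filter or a pseudocount of 1, 9 with a pseudocount of 32, 4 with median centring and 7 with a trend, and 0 to 38 with an array left out. With early or final stage as a replicate block, 161 genes were called for bone against liver. The pathway count of 0 became 1, Klk6, with a pseudocount of 32, median centring, a trend or the block, and 0 to 1 with an array left out. The cause was not tested.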
